A study of Homo sapiens with 8 samples.

Results

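The genes described here encode the mitochondrial ribosomal proteins (MRPs), and the data are places on chromatin where mTOR was found near them. mTOR is the kinase that couples nutrient and growth-factor signals to cell growth, and it was immunoprecipitated with cross-linked DNA (ChIP-seq) from LNCaP cells, a human prostate cancer cell line whose growth responds to androgen. A peak counted as an MRP peak when its nearest gene in the deposited annotation was a protein-coding gene named MRPL or MRPS with a number, and when it lay within 50 kb of that gene's transcription start site (TSS). By this rule 188 peaks were MRP peaks: 40 of 24948 peaks in the shEV EtOH list, 34 of 26074 in shEV R1881, 59 of 35121 in shFoxA1 EtOH and 55 of 39570 in shFoxA1 R1881. The reference gene table held 77 coding genes with such names among 20037 coding genes.

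All cells were LNCaP cells kept without androgen, in 2% charcoal-stripped serum, over the first 48 h. The shEV cells carried an empty short-hairpin vector and the shFoxA1 cells a hairpin that knocks down FoxA1, a pioneer factor that opens chromatin for the androgen receptor. Each was then given 0.1% ethanol (EtOH, the vehicle) or the synthetic androgen R1881 at 10 nM over a further 24 h, so the shEV EtOH cells are the control of both factors. The series holds 8 libraries, 4 of mTOR immunoprecipitates and 4 of input DNA, with 1 library for each combination, and the inputs were not analysed here. No value below therefore has a replicate error, no p-value can be given, and a difference between lists is a difference between 2 libraries. The lists come without read totals, which leaves the sequencing depth unknown. Values for the 4 lists are given in this order unless named otherwise: shEV with EtOH, shEV with R1881, then the shFoxA1 pair likewise. Peak lists measure neither RNA nor protein, so the extent of the knockdown and the identity of the cells could not be checked against expression markers here.

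Mitochondria carry their own ribosome, which translates the few messages of the mitochondrial genome into core subunits of the respiratory chain and the ATP synthase. Its RNAs come from the mitochondrial genome, but all of its proteins are encoded in the nucleus, made in the cytosol and imported. Some of them descend from bacterial ribosomal proteins and others are found only in mitochondrial ribosomes. mTOR is best known at the lysosome, where it promotes translation, including that of nuclear-encoded mitochondrial proteins. It has also been found on chromatin.

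The sequences that carry the description are those at the start sites, since most MRP peaks in 3 of the 4 lists lay there. RefSeq promoters (build GRCh38.p14, from 250 bp before the start to 50 bp from it on) were matched for 69 of the 77 genes. MRPL2, MRPL10, MRPL13, MRPL15, MRPL21, MRPL23, MRPL35 and MRPS28 were not among them. The 8-letter word AAGATGGC, the core of the sequence bound by the factor YY1, was on either strand in 21 of the 69 MRP promoters (30.4%) and in 4.66% of the promoters of 15843 coding genes. In 16 of the 69 (23.2%) it stood on the sense strand in the 50 bp after the start, against 2.5% of all coding promoters. This position was chosen after its values were seen. The word contains ATG, so a match there can also be the first codon of the reading frame, and reading frames were not analysed here. Examples of 30 bases are given for genes to which a TSS-proximal peak was assigned in 4 lists (MRPL38, MRPL49), in 3 (MRPL42, MRPL45, MRPS27, MRPL20), in 1 (MRPL46, MRPS10) and in none (MRPL22, MRPS7). These numbers follow the assignment to the nearest gene: by position, the start region of MRPS27 held a peak in all 4 lists, that of MRPL46 in both shFoxA1 lists and that of MRPS7 in shFoxA1 R1881. A TSS-proximal peak need not cover the word. The words of MRPL20 and MRPS10 lay outside every peak assigned to these genes. That of MRPL49 lay in the shFoxA1 EtOH peak only, and that of MRPL38 in both shFoxA1 peaks but neither shEV peak. The sequences follow, with the word in capitals, each written 5′ to 3′ on the gene's own strand:
MRPL38, chr17:75904860-75904889, - strand: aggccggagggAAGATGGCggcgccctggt
MRPL49, chr11:65122333-65122362, + strand: cgtagcaggtaAAGATGGCagctaccatgt
MRPL42, chr12:93467511-93467540, + strand: aggattgaaacAAGATGGCgggttcgtggt
MRPL45, chr17:38297170-38297199, + strand: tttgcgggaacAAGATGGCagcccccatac
MRPS27, chr5:72320206-72320235, - strand: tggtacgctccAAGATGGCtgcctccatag
MRPL20, chr1:1407260-1407289, - strand: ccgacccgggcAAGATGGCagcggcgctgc
MRPL46, chr15:88467362-88467391, - strand: tgggagaacgaAAGATGGCggcgcccgtaa
MRPS10, chr6:42217834-42217863, - strand: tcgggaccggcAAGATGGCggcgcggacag
MRPL22, chr5:154941093-154941122, + strand: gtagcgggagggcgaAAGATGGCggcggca
MRPS7, chr17:75261887-75261916, + strand: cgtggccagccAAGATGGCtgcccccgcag

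The 250 bp before the start are shown for MRPS23, MRPL24, MRPS14 and MRPS17, which had a peak within 1 kb of the TSS in every list and whose peaks are described below. They are written in the same way. Capitals mark any match to the 6 words searched, and the only match in these stretches is a CCAAT box of MRPS17:
MRPS23, chr17:57850045-57850294, - strand: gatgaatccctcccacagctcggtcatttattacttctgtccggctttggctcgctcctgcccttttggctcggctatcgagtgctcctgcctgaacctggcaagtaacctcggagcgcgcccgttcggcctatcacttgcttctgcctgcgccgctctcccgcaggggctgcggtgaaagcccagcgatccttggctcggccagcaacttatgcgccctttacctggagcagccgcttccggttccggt
MRPL24, chr1:156741089-156741338, - strand: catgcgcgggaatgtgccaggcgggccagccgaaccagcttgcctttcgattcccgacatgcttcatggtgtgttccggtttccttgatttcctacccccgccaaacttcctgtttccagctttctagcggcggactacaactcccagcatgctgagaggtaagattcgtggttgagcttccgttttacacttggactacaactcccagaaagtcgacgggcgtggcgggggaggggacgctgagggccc
MRPS14, chr1:175023426-175023675, - strand: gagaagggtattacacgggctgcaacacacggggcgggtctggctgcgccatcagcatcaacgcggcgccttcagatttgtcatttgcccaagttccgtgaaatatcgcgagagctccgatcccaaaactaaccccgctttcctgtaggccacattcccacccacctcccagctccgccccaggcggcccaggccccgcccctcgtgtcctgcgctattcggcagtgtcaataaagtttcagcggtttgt
MRPS17, chr7:55951627-55951876, + strand: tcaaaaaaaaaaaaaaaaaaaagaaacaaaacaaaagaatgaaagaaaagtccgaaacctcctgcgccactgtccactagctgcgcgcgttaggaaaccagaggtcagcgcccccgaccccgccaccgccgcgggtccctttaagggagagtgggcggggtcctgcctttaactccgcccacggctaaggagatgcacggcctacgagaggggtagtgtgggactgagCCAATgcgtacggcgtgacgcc

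The stretches of MRPS23, MRPL24, MRPS14 and MRPS17 had 61.6, 58.0, 59.6 and 56.0% G and C bases. Over the 69 MRP promoters of 300 bp the median was 60.0%, and over all coding promoters it was 62.3%.

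A larger share of MRP genes than of all coding genes carried an mTOR peak at the start site, in each of the 4 lists. A peak within 1 kb of the TSS was assigned to 22, 16, 35 and 33 of the 77 genes. These are 28.6% (Wilson 95% interval 19.7 to 39.5), 20.8% (13.2 to 31.1), 45.5% (34.8 to 56.5) and 42.9% (32.4 to 54.0) of the genes. Over all coding genes the shares were 15.2, 13.8, 27.4 and 26.8%. The share of all coding genes lay below the interval in shEV EtOH and in both shFoxA1 lists, and inside it in shEV R1881. The intervals cover counting error only.

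**Figure D1:**
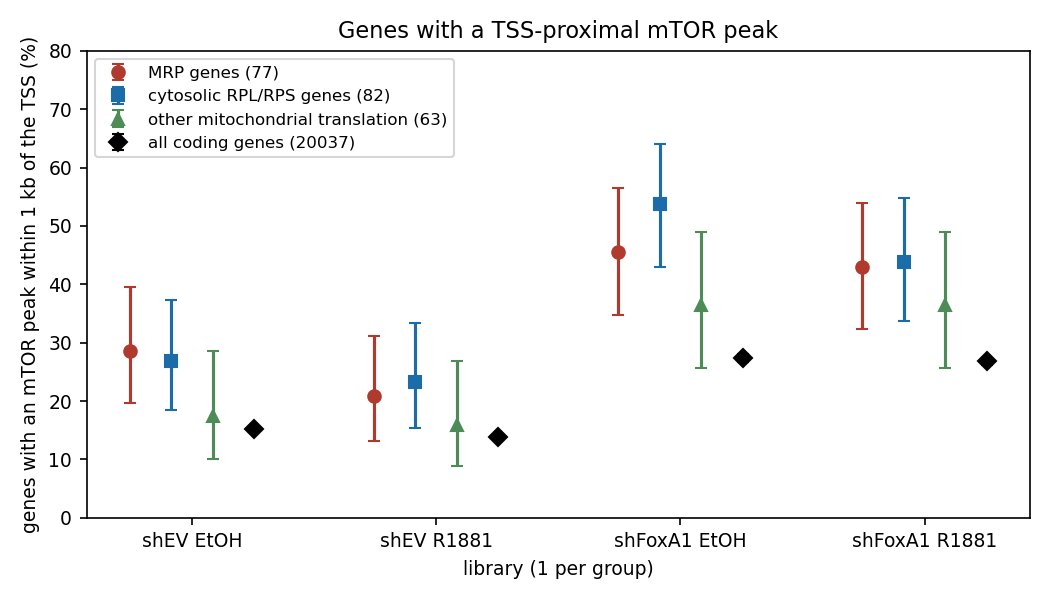
Share of genes (vertical axis, percent) with an mTOR peak within 1 kb of the TSS in each of the 4 libraries (horizontal axis); bars are Wilson 95% intervals and cover counting error only. MRP genes run from 20.8% in shEV R1881 to 45.5% in shFoxA1 EtOH, above all coding genes in each library and close to the cytosolic ribosomal protein genes.

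Within the wider distance of 50 kb, MRP genes stood nearer to the other genes. A peak was assigned to 32, 27, 43 and 40 of the 77 genes (41.6, 35.1, 55.8 and 51.9%). The shares over all coding genes were 36.5, 37.4, 49.0 and 51.5%. In shEV R1881 the MRP share was the lower one. The position of the peaks was then compared. Of the MRP peaks, 57.5% (Wilson interval 42.2 to 71.5), 47.1% (31.5 to 63.3), 61.0% (48.3 to 72.4) and 60.0% (46.8 to 71.9) lay within 1 kb of the TSS. Peaks of all coding genes within 50 kb lay there in 28.3, 24.0, 34.3 and 29.5% of cases.

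**Figure D2:**
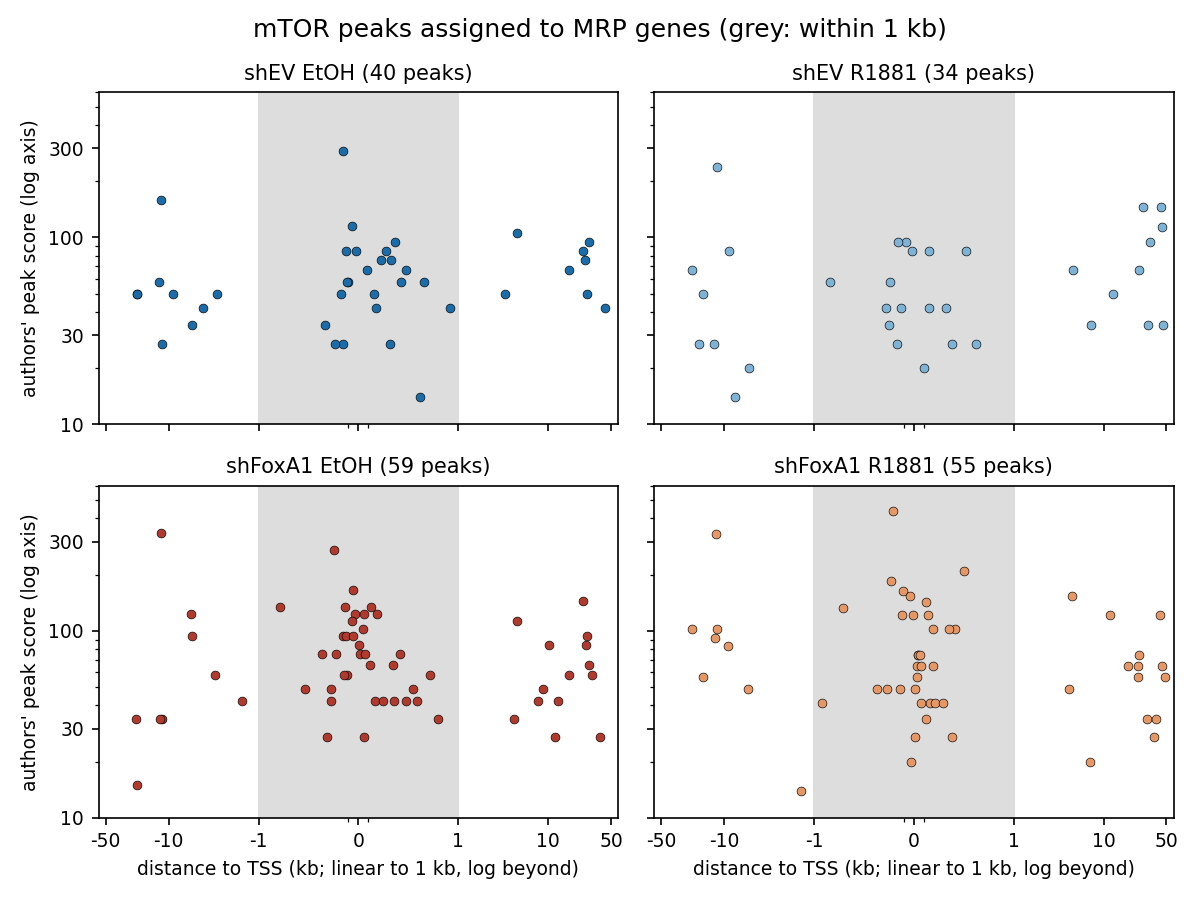
Each point is a peak assigned to an MRP gene, by its distance to the TSS (horizontal axis, kb, linear to 1 kb and logarithmic beyond) and the authors' score (vertical axis, logarithmic), in 1 panel per library. The grey band, within 1 kb, holds 23 of 40, 16 of 34, 36 of 59 and 33 of 55 points; scores are not comparable between panels.

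The ribosome of the cytosol gave values of the same size. Of 82 coding genes named RPL or RPS with a number, which encode cytosolic ribosomal proteins and a few relatives, 22, 19, 44 and 36 had a TSS-proximal peak (26.8, 23.2, 53.7 and 43.9%) in the order of lists above. The MRP share was higher in shEV EtOH and lower in the other 3 lists, and in each list the intervals of both groups overlapped. The other 63 genes of mitochondrial translation (further ribosome subunits, assembly factors, translation factors and aminoacyl-tRNA synthetases) had a TSS-proximal peak in 11, 10, 23 and 23 cases (17.5, 15.9, 36.5 and 36.5%). Those shares lay between MRP genes and all coding genes. Among the 5 further ribosome subunits, GADD45GIP1 had a TSS-proximal peak in all 4 lists and DAP3, a GTP-binding protein of the small subunit, in 3. EARS2 and FARS2, which charge mitochondrial tRNAs with glutamate and phenylalanine, had one in all 4 lists, as did the release factor MTRF1, the assembly factor NOA1 and TACO1, the activator of COX1 translation.

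The members were also split by subunit and by origin. Of 51 proteins of the large subunit, which forms peptide bonds, 12, 10, 24 and 22 had a TSS-proximal peak at their gene (23.5, 19.6, 47.1 and 43.1%). Of 26 proteins of the small subunit, which reads the message, 10, 6, 11 and 11 did (38.5, 23.1, 42.3 and 42.3%). Among the 46 proteins with a bacterial counterpart the numbers were 11, 9, 21 and 19, and among the 31 found only in mitochondrial ribosomes they were 11, 7, 14 and 14. In every list the intervals of large and small, and of both origins, overlapped. MRPS18A and MRPS30 were counted with the large subunit, where their proteins sit despite their names.

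The 47 genes with a TSS-proximal peak in at least 1 list ranged from those with one in every list to those with one in a single list. There were 9 genes with one in all 4 lists (11.7% of the 77, against 7.68% of coding genes): MRPL24, MRPL34, MRPL38, MRPL41, MRPL49, MRPS5, MRPS14, MRPS17 and MRPS23. A further 12 genes had one in 3 lists (15.6%, against 7.06% of coding genes), 8 in 2 lists (10.4%, against 9.08%) and 18 in 1 list (23.4%, against 13.0%), and 30 of the 77 (39.0%) had none, against 63.2% of coding genes. All of these counts follow the assignment to the nearest gene. Of these 30 genes, 28 had a RefSeq promoter by which the position could be checked, and MRPL2 and MRPL23 did not. Among the 28, MRPL9, MRPL54, MRPS6 and MRPS7 held a peak within 1 kb of the start that was assigned to a neighbour. For MRPL54 this neighbour was APBA3, with scores of 34 in shEV EtOH, 94 in shFoxA1 EtOH and 65 in shFoxA1 R1881.

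**Figure D3:**
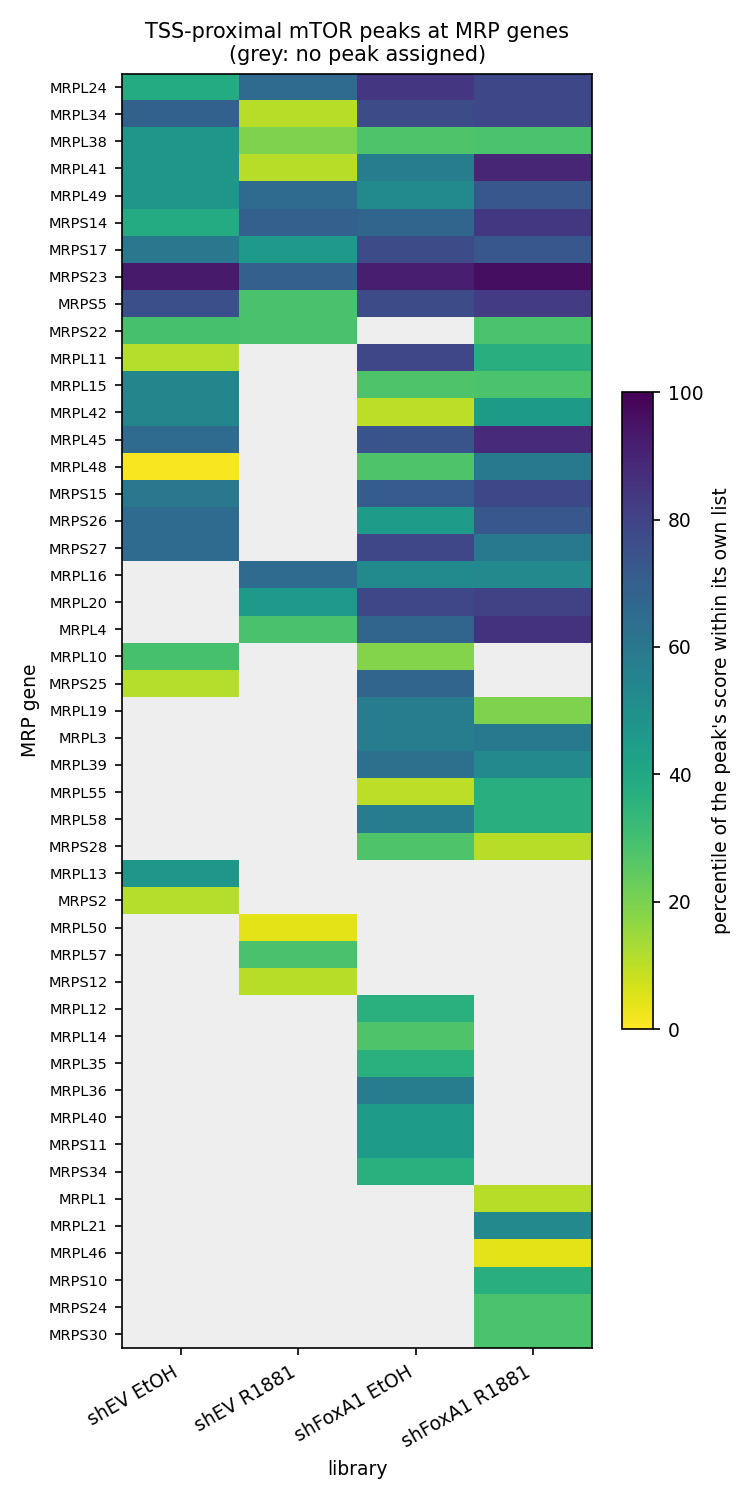
Rows are the 47 MRP genes with a TSS-proximal mTOR peak in at least 1 library and columns are the 4 libraries; colour gives the percentile of the gene's highest proximal peak score within its own list, and grey means that no peak was assigned. The top 9 rows are filled in all 4 columns, and 8 rows below are empty in shEV R1881 only.

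The highest-scoring MRP promoter peak of each list, tied with MRPS14 in shEV R1881, belonged to MRPS23, a small-subunit protein found only in mitochondrial ribosomes. It scored 289, 95, 272 and 438 in the 4 lists (chr17:57849874-57850529 of hg38 in shEV EtOH, centred at -157 bp from the TSS). The score is the authors' own value for a peak and ranks peaks only within a list. There the percentile of the MRPS23 peak among all peaks was 92.6, 69.3, 91.6 and 96.1. It was the highest MRP score in shEV EtOH and in shFoxA1 R1881, the second highest in shFoxA1 EtOH and tied for the fifth in shEV R1881.

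MRPS17, the counterpart of bacterial ribosomal protein S17, had 2 peaks in each list. The promoter peak (chr7:55951541-55952660 in shEV EtOH) scored 76, 58, 123 and 102 in the 4 lists. The other lay at about -12 kb (chr7:55939063-55940452 in shEV EtOH, centred at -12120 bp) and scored 158, 238, 335 and 332. That second peak was the highest-scoring MRP peak in shEV R1881 and in shFoxA1 EtOH. It lies in exon 7 of 7 of ZNF713, a zinc finger gene, and counts for MRPS17 only because that start site is the nearest.

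Of the other genes with a peak in every list, MRPL24, MRPS14 and MRPS5 have bacterial counterparts. The MRPL24 promoter peak (chr1:156740839-156741381 in shEV R1881) scored 50, 85, 166 and 122. That of MRPS14 (chr1:175023224-175023838 in shEV R1881) scored 50, 95, 94 and 153. MRPS5, whose bacterial counterpart helps keep decoding accurate, had a promoter peak (chr2:95121262-95121970 in shEV EtOH) with scores of 115, 42, 123 and 142. In shEV R1881 the peak of MRPS5 was in the lower part of its list, at percentile 28.9, and in the other lists it stood between percentiles 75.5 and 82.3.

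MRPL41, found only in mitochondrial ribosomes, also had 2 peaks in each list. The proximal one (chr9:137551972-137552798 in shFoxA1 R1881) covers its exon 2 of 2 and scored 58, 27, 75 and 209. The second (chr9:137556007-137556549 in shFoxA1 R1881), about 4.4 kb downstream, scored 105, 67, 113 and 153 and lies in the last exon, a 3′ UTR, of DPH7. MRPL34, the counterpart of bacterial L34, had 2 proximal peaks in shEV EtOH, scored 34 and 95, and 1 in each other list, scored 27, 123 and 122. MRPL49 shares its start region with FAU, which encodes a precursor of a cytosolic ribosomal protein, and its peaks of 58, 85, 66 and 102 were annotated to the promoter of FAU. MRPL38, one of the 16 genes with the YY1 word after the start, had the lowest values of the group in both shFoxA1 lists, with 58, 34, 42 and 41.

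The promoter peaks of MRP genes were also set beside those of all coding genes by score and base content. Their median score was 58, 42, 75 and 65, and that of TSS-proximal peaks of all coding genes was 50, 50, 58 and 57. The MRP median was lower in shEV R1881 and higher in the other lists. The median G and C content of the proximal MRP peaks was 57.8, 59.7, 60.4 and 59.4%, below the 65.5, 64.3, 65.5 and 64.5% of all coding genes. Their median CpG dinucleotide content was 5.84, 5.88, 6.98 and 6.57%, against 8.71, 8.34, 8.61 and 8.24%.

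The androgen R1881 was compared with EtOH within each hairpin. A gained peak is one in the R1881 list that no peak of the EtOH list overlaps by at least 1 bp, and a lost peak is one in the EtOH list with no overlap in the R1881 list. In shEV cells 16 of the 34 R1881 peaks at MRP genes were gained (47.1%) and 19 of the 40 EtOH peaks were lost (47.5%). For all coding genes 46.0% were gained and 42.4% lost, so the MRP shares were near the background. At the start sites 6 of 16 were gained and 10 of 23 lost (37.5 and 43.5%), against 39.6 and 44.5% for all coding genes. When both lists were cut to their 10000 highest-scoring peaks, few MRP peaks were left. Between the cut lists 9 of 11 counted as gained and 10 of 12 as lost (81.8 and 83.3%, against 36.9 and 34.7%). These shares stood above the background, but they include peaks whose overlapping partner only fell below the cut of the other list. The MRPS14 promoter peak, at percentile 69.3 in R1881 and 38.4 in EtOH, was counted as gained in this way.

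The lost promoter peaks with the highest scores were those of MRPL45, at 85 (chr17:38296600-38297198), MRPS26, at 85, and MRPS15, at 76 (chr1:36463615-36464503). MRPL45 is a large-subunit protein at the exit of the peptide tunnel, which anchors the ribosome to the inner membrane, and MRPS15 is the counterpart of bacterial S15. All of these had a promoter peak again in both shFoxA1 lists, with scores of 113 and 186 for MRPL45, 58 and 102 for MRPS26, and 103 and 122 for MRPS15. Promoter peak here means a TSS-proximal one, whatever its annotation. The MRPS26 peaks were annotated to the transcription end of GNRH2 in shEV EtOH and shFoxA1 R1881, and to an MRPS26 intron in shFoxA1 EtOH. The gained promoter peaks with the highest scores were those of MRPL16, at 85, and MRPL20, at 58, both with bacterial counterparts. Away from promoters the highest gained peaks lay in the last exon of a non-coding transcript of MRPL42 (score 114, at 44674 bp) and in an L2b repeat in an intron of MRPL48 (95), and further ones were at MRPL32 and MRPS18A (50 each). The highest lost ones lay in an intron of MRPS27 (95, at 28296 bp) and in a THE1B repeat at MRPL16 (76).

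In shFoxA1 cells 18 of 55 MRP peaks were gained with R1881 (32.7%) and 22 of 59 were lost (37.3%). The background was 43.1% gained and 35.0% lost. Between the lists cut to their 10000 highest-scoring peaks, counted in the same way as for shEV, 5 of 14 were gained and 5 of 14 lost (35.7% each, against 33.5 and 32.4%). At the start sites 6 of 33 were gained (18.2%), against 29.4% of those of all coding genes, and 9 of 36 were lost (25.0%), against 30.7%. The gained peak with the highest score, 122, lay in an L1PA3 repeat at MRPS28, 42779 bp from its start, and the next in a MER57 repeat at MRPL55 (83). Those scored 65 were at MRPL1, MRPL42, MRPS5 and MRPL21, and only the last lay at a promoter. Among the lost peaks 3 scored 94: those in repeats at MRPL20 and MRPL32 and the promoter peak of MRPS25, a small-subunit protein found only in mitochondrial ribosomes. Lost peaks of 84 lay in repeats at MRPL16 and MRPL57.

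Each pair compares its own 2 libraries, and those 2 pairs share none. To see which regions went the same way in both, the MRP peaks of the 4 lists were merged where they overlapped, which gave 91 regions, 47 of them TSS-proximal. With R1881 but not with EtOH, under either hairpin, 3 regions were present (3.3%), against 5.25% of the 29114 regions of all coding genes, and none was at a promoter. They lay at MRPL17 (scores 34 in shEV and 20 in shFoxA1 cells), MRPS18A (50 and 57) and at the end of MRPL42 (114 and 65). With EtOH but not with R1881 there were 6 regions (6.59%, against 2.74%). The promoters among them were those of MRPS25 (27 in shEV and 94 in shFoxA1 cells) and MRPL10 (42 and 34), which encodes a protein of the stalk that recruits translation factors. The others were distal, at MRPL13 (67 and 58), MRPL16 (76 and 84), MRPL58 (50 and 58) and MRPS27 (95 and 66).

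The list of shEV R1881 alone lacked a peak at several promoters. Among the 47 proximal regions, 7 were present in every list but that one (14.9%, against 9.12% of proximal regions of all coding genes). They were the promoters of MRPL11, MRPL15, MRPL42, MRPL45, MRPL48, MRPS15 and MRPS26. MRPL11, whose bacterial counterpart forms the base of the stalk, scored 27 in shEV EtOH, 134 in shFoxA1 EtOH and 49 in shFoxA1 R1881 (chr11:66438474-66439494 over the 3 lists). The promoter of MRPS27, an RNA-binding protein of the small subunit, would be another by gene name, but its peak in shEV R1881 was assigned to PTCD2, which starts on the opposite strand, with a score of 58. Present in every list but shEV EtOH were 4 proximal regions, at MRPL4, MRPL16, MRPL20 and MRPL50 (8.51%, against 7.01%). MRPL4 scored 42, 94 and 164 there, in shEV R1881, shFoxA1 EtOH and shFoxA1 R1881.

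The knockdown of FoxA1 was compared with the empty vector within each treatment, and here the lists differed in length. In EtOH 29 of 59 MRP peaks of shFoxA1 cells were gained (49.2%) and 8 of 40 of shEV cells were lost (20.0%). In R1881 31 of 55 were gained (56.4%) and 10 of 34 lost (29.4%). For all coding genes the gained shares were 51.1% in EtOH and 54.6% in R1881, and the lost shares 25.2 and 25.6%, close to those of MRP genes. At the start sites 18 of 36 were gained in EtOH (50%) and 19 of 33 in R1881 (57.6%), against 55.0 and 58.2% for all coding genes. Lost at start sites were 3 of 23 (13.0%) and 2 of 16 (12.5%), against 16.0 and 16.4%.

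In each treatment 21 more MRP peaks were gained than lost, and the shFoxA1 lists were longer. When each list was limited to its 10000 highest-scoring peaks, 12, 11, 14 and 14 MRP peaks were left. Of these, 4 of 14 were gained and 2 of 12 lost in EtOH (28.6 and 16.7%, against 33.2 and 28.4% for all coding genes). In R1881 9 of 14 were gained and 6 of 11 lost (64.3 and 54.5%, against 33.5 and 30.1%), further from the background than in the whole lists. In these cut lists a peak also counted as gained or lost where an overlapping peak of the other list fell below the cut. The MRPL4 promoter peak, at percentile 85.2 in shFoxA1 R1881 and 28.9 in shEV R1881, was counted as gained in this way. Whether depth or enrichment of the libraries contributed was not tested.

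**Figure D4:**
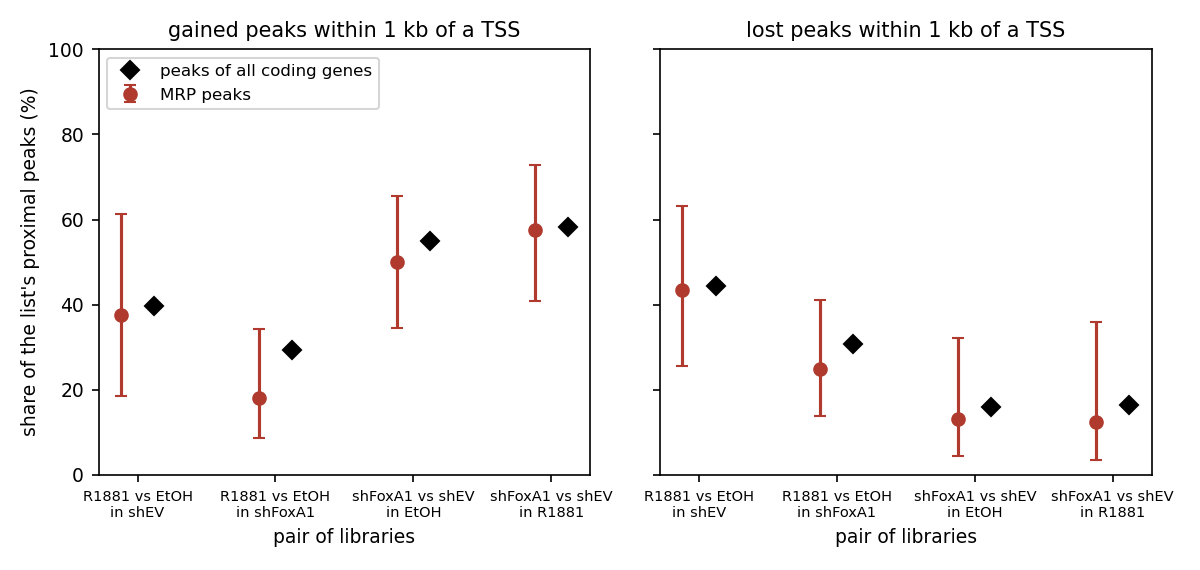
Share of TSS-proximal peaks (vertical axis, percent) that were gained (left, of the first library's peaks) or lost (right, of the second library's) in each pair of libraries; red points are MRP peaks with Wilson 95% intervals for counting error and black diamonds are peaks of all coding genes. MRP shares lie at or below the diamonds in each pair, from 12.5% to 57.6%, and every diamond is inside the interval.

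The promoters gained with the knockdown encode proteins of several kinds. Present in both shFoxA1 lists and neither shEV list were 10 MRP regions (11%, against 8.36% of coding regions), 7 of them at promoters (14.9% of proximal regions, against 13.9%). They belonged to MRPL3 (scores 75 in EtOH and 74 in R1881), MRPL19 (75 and 34), MRPL55 (27 and 49) and MRPS28 (42 and 27), all with bacterial counterparts. Also among them were MRPL39 (84 and 65) and MRPL58 (75 and 49). MRPL58 is a peptidyl-tRNA hydrolase that became part of the large subunit. The remaining region is the start region that MRPL46 and MRPS11 share (58 and 20), and its peak went to MRPS11 in EtOH and to MRPL46 in R1881. The distal ones were at MRPL54 (34 and 49), MRPS27 (27 and 122) and MRPS28 (27 and 34). None of the 91 MRP regions was present in both shEV lists and neither shFoxA1 list, a pattern of 0.742% of coding regions.

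The peaks gained with the knockdown that had the highest scores stood at further genes. In EtOH they were the promoter peak of MRPL20 (134), 2 peaks of 94 at a repeat near MRPL20 and at the promoter of MRPL4, and 2 of 84 at the promoter of MRPL39 and in an SVA repeat at MRPL57. In R1881 they were the promoter peaks of MRPL45 (186), MRPS15 (122) and MRPS26 (102), a peak of 122 at a CpG island in an intron of MRPS27, and a peak of 102 in an L1PA5 repeat upstream of MRPL3. Peaks lost with the knockdown in EtOH scored at most 67, at the promoter of MRPL15, where both shFoxA1 lists hold other peaks in the same region. The next, at 50, were distal, at MRPL4, MRPL55 and MRPS33, and then came 3 of 42, at MRPL58, at the promoter of MRPS22 and in an L1PA3 repeat at MRPS28. In R1881 the highest lost scores were 146 in a HERV35I repeat at MRPL32, 95 in the repeat at MRPL48, 50 at MRPL32 and 42 at the promoter of MRPL57, followed by 34 at MRPS27 and MRPS33. Near the start of MRPL57 the shFoxA1 R1881 list held another peak (57), assigned to SKA3, that did not overlap the lost one.

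Some promoters had a peak in a single list. In shFoxA1 EtOH alone these were MRPL12, a stalk protein, MRPL14, MRPL35, MRPL36, MRPL40, MRPS34 and, by gene name, MRPS11. In shFoxA1 R1881 alone they were MRPL1, MRPL21, MRPS10, MRPS24, MRPS30 and, by gene name, MRPL46. By gene name, MRPL50, MRPL57 and MRPS12, whose bacterial counterpart sits in the decoding centre, had one in shEV R1881 alone, and MRPL13 and MRPS2 in shEV EtOH alone. Of proximal MRP regions, 14.9% were in shFoxA1 EtOH alone, 10.6% in shFoxA1 R1881, 4.26% in shEV R1881 and 2.13% in shEV EtOH. For proximal regions of all coding genes these shares were 16.8, 16.1, 2.43 and 3.19%. The peaks of MRPL14, MRPL40, MRPS34, MRPL21 and MRPS12 were annotated to the promoters of TMEM63B, HIRA, EME2, IGHMBP2 and SARS2. Some of these single appearances came from the assignment to the nearest gene. The start region of MRPL13 held a peak in all 4 lists, with scores of 58, 76, 166 and 164, but 3 of them were assigned to MTBP, its neighbour on the opposite strand. At MRPL50 the shFoxA1 peaks went to ZNF189 (34 and 57), within 1 kb of the MRPL57 start they went to SKA3 (34 and 57), and at MRPS2 the shFoxA1 peaks had no gene name (66 and 102).

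Most distal MRP regions held a peak in a repeat. Of the 44 distal regions, 32 had a peak annotated to a repeat, and by the first such peak of a region these were LINE elements in 11, LTR elements in 9, SINEs in 8, SVA retroposons in 2 and DNA transposons in 2. By list, 64.7, 72.2, 73.9 and 59.1% of distal MRP peaks were in repeats, against 75.8, 72.6, 69.9 and 67.4% of those of all coding genes. Of the distal regions, 5 were present in all 4 lists (11.4%, against 18.1% of distal regions of all coding genes). Besides those at MRPS17 and MRPL41, they were a MER11C element at MRPL30 (scores 85, 67, 144 and 74), an SVA_C element upstream of MRPL48 (58, 27, 34 and 92) and an intergenic region upstream of MRPL33 (50, 67, 15 and 102). The HERV35I element at MRPL32 scored 50, 146 and 94 in the first 3 lists and had no peak in shFoxA1 R1881.

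The genes with the most peaks over the 4 lists were MRPS27 with 10, MRPL48 with 9, and MRPL41, MRPS17 and MRPS28 with 8 each. MRPS27 and MRPL48 gathered theirs along the gene and its surroundings, whereas MRPL41 and MRPS17 had the same 2 places in every list. This ranking does not allow for gene length, and MRPS27 and MRPL48 are much longer genes than MRPL41 and MRPS17. At the edge of the rule, the farthest peaks inside 50 kb were at MRPS30 (48702 bp, score 57), MRPS27 (45613 bp, 34) and MRPL42 (44780 bp, 65). The nearest outside were 3 at MRPL13, at 52510, 52566 and 52617 bp, with scores of 232, 169 and 103. Had the rule reached them, the peak of 232 would have been the third highest of shFoxA1 R1881.

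No peak within 50 kb was assigned in any list to 23 of the 77 genes (29.9%, against 37.1% of coding genes). They were MRPL2, MRPL9, MRPL18, MRPL22, MRPL23, MRPL27, MRPL28, MRPL37, MRPL43, MRPL44, MRPL47, MRPL51, MRPL52, MRPL53, MRPS6, MRPS7, MRPS9, MRPS16, MRPS18B, MRPS18C, MRPS21, MRPS31 and MRPS35. Among the 21 of these with a RefSeq promoter, 3 had a peak within 1 kb of the start all the same, assigned to a neighbour: MRPL9 (to OAZ3, score 49, in shFoxA1 EtOH), MRPS6 (to SLC5A3, 49, in shFoxA1 R1881) and MRPS7 (to GGA3, 41, in shFoxA1 R1881). A peak missing from a thresholded list of unknown depth does not show that mTOR was absent.

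The promoter words were set beside the peaks. The YY1 word was in 13 of the 41 matched promoters with a TSS-proximal peak in any list and in 8 of the 28 without. After the start on the sense strand it was in 16 promoters, and 11 of those genes had a TSS-proximal peak (68.8%), as did 30 of the 53 others (56.6%). Over all coding genes the shares were 53.5% with that word and 37.7% without. The ETS word CCGGAAGT, bound by GABP and its relatives, was in 12 MRP promoters (17.4%, against 6.97%), 6 of them with a peak. A TSS-proximal peak was thus found for 50% of MRP genes with this word and 61.4% of those without, and over all coding genes for 50.2% with and 37.2% without. The word GCATGCGC of NRF1, a regulator of nuclear genes for mitochondria, was in 6 (8.7%, against 4.89%). None of those 6 genes had a TSS-proximal peak, whereas 41 of the 63 others did, and over all coding genes 44.8% of those with the word and 37.7% of those without had one.

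The other words stood at lower shares than in all coding promoters. CCAAT was in 33.3% of MRP promoters, against 42.1%, and the androgen response half-site AGAACA in 10.1%, against 14.9%. The forkhead word TGTTTAC, of the family of FoxA1, was in none of the 69, against 3.75%, a share at which few matches fall among 69 promoters. It was also in none of the 65 matched promoters of cytosolic ribosomal protein genes. All words were searched on both strands, and overlaps between words were allowed. A match is a description of letters, and no match says only that these letters are not in the 300 bp.

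**Figure D5:**
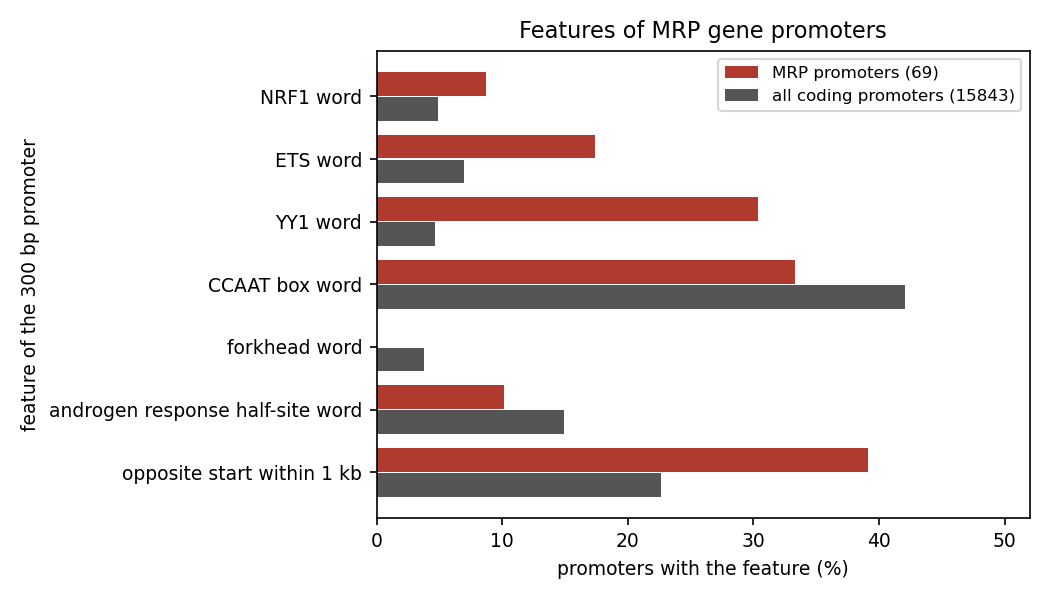
Share of promoters (horizontal axis, percent) with each word or with the start of a gene on the opposite strand within 1 kb, for 69 MRP genes (red) and 15843 coding genes (grey). The YY1 word stands at 30.4% against 4.66%, and the forkhead word is in none of the MRP promoters, against 3.75% of all coding promoters.

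Many MRP genes start beside another gene. A gene on the opposite strand began within 1 kb upstream, or up to 100 bp inside, in 27 of the 69 (39.1%), against 22.6% of coding genes. Of these 27, 13 had a TSS-proximal peak in at least 1 list (48.1%), as did 28 of the other 42 (66.7%). In all coding genes the order was the other way, with 44.3% beside an opposite start and 36.3% elsewhere. At such shared starts 1 peak can be assigned to 1 gene only, as at MRPL13, MRPL46 and MRPS27. MRPL13 is not among the 69, and MRPL46 and MRPS27 already count as genes with a peak. MRPL9, MRPL54 and MRPS7 count as without, though a peak near their start was assigned to a neighbour. The part of this assignment in the difference was not tested.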

How the data were processed

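Chromatin from LNCaP cells was immunoprecipitated with an antibody to mTOR, and libraries were sequenced as paired-end 150 bp reads, per the labels. Per the submitters' processing notes, reads of build hg38 were handled with deepTools 3.5.0, HOMER 4.11.1, MACS2, BWA 0.7.12, Trimmomatic 0.36 and Picard 2.0.1; their roles, the peak threshold and the control were not given in the sources used here. Per the file headers each deposited list is HOMER's annotation of the peaks of 1 library. The authors' peak score, as deposited, has no stated definition and was used only within a list. The deposited fraction of G and C and of CpG bases in each peak was printed as a percentage. Distances to the TSS and nearest genes were taken as deposited.

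Peaks on chromosomes 1 to 22, X and Y were used. Genes were matched by identifier to a RefSeq table (GRCh38.p14), and promoters came from RefSeq at the same build. Peaks sharing at least 1 bp were called shared, and proximal means within 1 kb. The overlap step was tested on simulated data. Coordinates count from 1. Python 3.11.15, pandas 2.3.3 and scipy 1.17.1 were used. With 1 library per group no test was made. Each group is a sample of its own by its label. Alternatives were a distance of 10 kb, the 10000 highest-scoring peaks, no peaks in repeats, an overlap of 50% of the peak, merging over 500 bp, and a RefSeq window of 1 kb.

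The members and lists were chosen with earlier results of these data known. Genes were named by a rule: a peak within 1 kb in all 4 lists, the 5 highest-scoring member peaks of a list, the 5 highest gained and lost peaks of a pair, the 5 genes with the most peaks, regions shared by both lists of one treatment or hairpin only, and genes with no peak, with ties kept. Genes with a promoter peak in 1 or 3 lists and neighbours of shared starts were named in addition, after their values were seen.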

Additional observations from a re-analysis of the deposited data

Results flagged for a closer look

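Of the 91 MRP regions, 1 went opposite ways with R1881 in the 2 hairpins, and this difference was not tested. That is 1.1% of the MRP regions, against 1.65% of the regions of all coding genes, and the reverse pattern was at 0 of the MRP regions and 1.94% of coding regions. It lies upstream of MRPL20 (chr1:1412251-1412939, at -5229 bp from the TSS) in LTR elements of endogenous retroviruses. It was gained with R1881 in shEV cells, with a score of 20, and lost in shFoxA1 cells, where the EtOH peak scored 94.

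Signal outside the rule was found in 24 peaks that lay more than 50 kb from the coding MRP gene named as nearest, with 6 and 2 in shEV cells (EtOH, R1881) and 7 and 9 in shFoxA1 cells. A further 24 peaks were assigned to genes with an MRP name that are not protein-coding, with 6, 5, 8 and 5 in the same order. These include the pseudogenes MRPS31P5, MRPL45P2 and MRPL42P5, and MRPS30-DT, a transcript divergent from MRPS30. No input list was used, so neither has a control level.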

How the results depend on the processing

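Of 81 recomputed values for 29 results, 45 stayed near the reported value, 36 moved and none of the signed differences changed sign, though some fell to 0. Orders are shEV EtOH, shEV R1881, shFoxA1 EtOH and shFoxA1 R1881. With each list held to its top 10000 peaks by score, genes with a peak within 50 kb fell to 10, 11, 12 and 13 and those within 1 kb to 8, 5, 10 and 10. Gained, lost and net peaks then were 9, 10 and -1 for R1881 in shEV, 5, 5 and 0 for R1881 in shFoxA1, 4, 2 and 2 for the knockdown in EtOH, and 9, 6 and 3 for the knockdown in R1881. Under this setting a peak also counted as gained or lost where its partner in the other list fell below the cut. Without peaks in repeats, genes within 50 kb in shEV EtOH were 21. R1881 then gained 8 and lost 10 in shEV, and gained 10 and lost 10 in shFoxA1 with a net of 0. The knockdown gained 19 and lost 3 in EtOH and lost 3 in R1881. Within 10 kb, R1881 gained 9 in shEV with a net of -5, and gained 9 and lost 14 in shFoxA1, and the knockdown lost 4 in R1881. With an overlap of 50%, the net of R1881 was -7 in shEV and -2 in shFoxA1. Except for gained and lost peaks among the top 10000, these values stand without the shares of all coding genes. They do not show whether the MRP excess at start sites would hold under these settings. Fewer peaks entered under the first 3 settings by construction, and otherwise the cause was not tested. Merging over gaps, and the RefSeq window, which covers only the 69 genes with a promoter entry, moved no result by over 1.5 times. No paired analysis was possible because each group has 1 library and no result comes from a test. Unknown depth limits every absent peak.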
